A study of Mus musculus with 6 samples.

Results

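Transcripts of the MHC class I antigen presentation pathway were measured in 2 kinds of mouse glioma culture. The pathway was represented by 10 genes taken by their symbols, with earlier results of these data known: the heavy chains H2-K1 and H2-D1, their partner B2m, the peptide transporter genes Tap1 and Tap2, the loading factor Tapbp, the immunoproteasome genes Psmb8, Psmb9 and Psmb10, and the transcriptional activator Nlrc5. All 10 were among the 54446 genes of the count matrices, and all 10 passed the filter on low counts that left 18439 genes for testing. GL261 is an established mouse glioma line, which here was kept in a differentiation medium containing fetal calf serum and gave 2 libraries. GL261-GSCs are cultures derived from GL261 that the labels call glioblastoma stem cells. They were kept in a defined medium for stem cells and gave 4 libraries. Both are descendants of 1 line, so medium and derivation differ together between the groups and cannot be told apart. The labels name no interferon, other treatment or genetic change for either group. Nothing in them says that the replicates came from separate cultures, so the p-values measure only the spread between these libraries, which may be technical.

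Class I molecules sit on the cell surface and show CD8 T cells peptides made from the cell's own proteins. The proteasome cuts those proteins, and its immunoproteasome form carries Psmb8, Psmb9 and Psmb10 in place of the constitutive subunits Psmb5, Psmb6 and Psmb7. Tap1 and Tap2 form the pump that moves peptides into the endoplasmic reticulum, where Tapbp (tapasin) holds the pump next to a heavy chain paired with B2m until a peptide binds. Nlrc5 has no DNA-binding domain of its own and acts on class I promoters through factors that are already bound there. Interferon-gamma is the best known inducer of nearly all of these genes.

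The promoters of the classical class I genes hold short elements through which these signals act. They are shown here because the transcripts of the class I genes did not move together in the cultures. The part of any element in the transcript levels was not tested. RefSeq promoter entries on GRCm38.p6 were found for 8 of the 10 genes; Tap2 and Nlrc5 had none. In the first pair of sequences, read 5′ to 3′ on the strand of the gene, the capitals mark an NF-kappa-B element (GGGANTCCC, where N is any base), the core of an interferon-stimulated response element (AANNGAAA, in H2-K1 on the opposite strand), the core of the X2 box (TGACG) and the core of the Y box (CCAAT, here on the opposite strand). They are the 200 bases before the H2-K1 start (chromosome 17, 34000348 to 34000547, minus strand) and 199 bases before the B2m start (chromosome 2, 122147487 to 122147685, plus strand).

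H2-K1 upstream: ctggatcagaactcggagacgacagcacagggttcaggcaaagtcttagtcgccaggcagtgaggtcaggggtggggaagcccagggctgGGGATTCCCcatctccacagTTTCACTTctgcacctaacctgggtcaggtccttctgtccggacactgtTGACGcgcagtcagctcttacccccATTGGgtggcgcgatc
B2m upstream: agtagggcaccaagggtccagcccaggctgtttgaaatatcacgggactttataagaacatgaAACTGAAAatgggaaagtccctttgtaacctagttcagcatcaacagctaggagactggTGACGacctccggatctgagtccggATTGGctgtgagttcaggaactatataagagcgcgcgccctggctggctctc

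The NF-kappa-B and interferon elements of both heavy chains lie within 30 bases, and these are shown because the ratio of H2-D1 to H2-K1 UMIs, given below, did not overlap between the cultures. The stretches lie on chromosome 17 at 34000429 to 34000458 for H2-K1 and 35262923 to 35262952 for H2-D1, the second inside an exon of an annotated H2-D1 transcript. They were identical at 29 of 30 bases, and the best local alignment of the 300-base entries of both genes was identical at 206 of 228 bases (90.35%).

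H2-K1 enhancer: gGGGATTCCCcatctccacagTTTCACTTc
H2-D1 enhancer: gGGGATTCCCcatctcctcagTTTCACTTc

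The X2 box belongs to the module of bound factors through which Nlrc5 acts. Matches to its core letters, TGACG, are shown in capitals with their surroundings for the 4 genes below. The label X2 names a match of these letters, which does not show that an X2 box is present. The stretches lie at 34000371 to 34000400 (H2-K1), 35262981 to 35263010 (H2-D1) and 34187458 to 34187487 (Tap1) on chromosome 17, and at 122147597 to 122147626 on chromosome 2 (B2m). Those of H2-D1 and Tap1 lie inside annotated exons over all 30 bases, and those of H2-K1 and B2m lie outside exons. In H2-K1, H2-D1 and B2m a match to the Y box core lies between TGACG and the start. In Tap1 the only such match in the 250 bases before the start lies upstream of TGACG. The Tap1 match thus lacks the order seen in the other genes shown.

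H2-K1 X2: tccggacactgtTGACGcgcagtcagctct
H2-D1 X2: ccgggacactgaTGACGcgctggcaggtct
B2m X2: ctaggagactggTGACGacctccggatctg
Tap1 X2: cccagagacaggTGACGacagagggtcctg

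Each motif was searched on both strands in the 250 bases before the start. GGGANTCCC was found before H2-K1 and H2-D1 and in 0.64% of 27025 promoters. It is a single form of the NF-kappa-B element, and other forms were not searched. The B2m sequence above holds gggaaagtccc, which these letters cannot match, so the search does not show that B2m lacks such an element. AANNGAAA was found before H2-K1, H2-D1 and B2m and in 21.6% of promoters, TGACG before 5 of the 8 genes and in 17.8%, and CCAAT before 6 of the 8 and in 34.5%. For TGACG and for CCAAT, the match before Tap1 and the match before Psmb9 are the same bases, since these 2 genes share their upstream stretch, and they are counted under both. A gamma-activated sequence, TTCNNNGAA, was found before Psmb8 alone of the 8 and in 7.14% of promoters. Psmb10 held none of the 5 motifs in this window. The letters searched for the NF-kappa-B and interferon elements were settled after matches had been seen (a longer interferon form missed B2m), so their presence before these genes is a description. These are matches of letters, not measured sites.

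The 6 libraries were droplet 5′ single-cell libraries. Called cells numbered 4264 to 7275 per library and held 33320530 to 79472306 UMIs, which were summed per library, and each level below is in CPM, UMIs scaled to a common library size. A log2 fold change is GL261-GSCs over GL261 from the edgeR quasi-likelihood test, with its standard error, and a gene is called when its Benjamini-Hochberg adjusted p over all 18439 genes was under 0.05. Pairs of libraries shared 32 to 59 called barcodes, where 26.1 to 57.9 would be shared by chance. The GL261-GSCs libraries formed pairs: replicates 3 and 4 both lay above replicates 1 and 2 in 32.4% of the genes tested and both below them in 31.2%. Results are therefore also given without either pair, a choice made after the data were seen. These fits leave out the spread between the pairs. Over all genes tested 54.9% were called without replicates 1 and 2 and 39.8% without replicates 3 and 4. With all 6 libraries the share was 29.9%. Adjusted p-values of the fits without a pair are therefore a description. Median UMIs per cell were 15375 and 11890 in replicates 1 and 2 and 10638 and 6670 in replicates 3 and 4, and the median mitochondrial share was 1.04% and 1.11% against 1.26% and 1.35%. Of 9 glioma markers 8 were called between the groups, 5 higher and 3 lower in GL261-GSCs, and the intermediate filament gene Vim stood between 4355 and 15215 CPM. The largest differences were those of Ptprz1, Olig2 and Fabp7, all called higher in edgeR, at 0.0166 to 0.918 CPM in GL261 and 49.6 to 787 CPM in GL261-GSCs. Of 20 immune cell markers 17 stayed under 1 CPM in all libraries, as did 7 of 9 markers of endothelial cells and pericytes and 5 of 6 neuron markers. The immune markers summed to 26.7 and 26.2 CPM in GL261 and to 10.1 to 24.3 CPM in GL261-GSCs. Of them 2 were called, both lower, Csf1r with a log2 fold change of -5.79 and Lyz2 of -3.10 in edgeR. Lyz2 ran from -3.83 to -2.77 when 1 library was left out, and its call was lost without either GL261 library. Cd68, the third immune marker above 1 CPM, pointed the other way, from 7.87 and 7.04 CPM in GL261 to between 8.92 and 22.97 CPM in GL261-GSCs (log2 fold change 1.11, edgeR adjusted p = 0.0662). The endothelial and pericyte markers summed to 48.6 and 36.3 CPM in GL261 and to 59.2 to 86.2 CPM in GL261-GSCs, and 2 of the 3 tested were called: Flt1 higher (log2 fold change 0.81, edgeR adjusted p = 0.0232; not called without GL261 replicate 1 or 2 or GL261-GSCs replicate 3) and Cdh5 lower, from 49 UMIs in GL261 to 1 in GL261-GSCs. The neuron markers summed to 0.281 and 0.215 CPM in GL261 and to 1.27, 12.7, 51.8 and 78.4 CPM in GL261-GSCs replicates 1 to 4. In GL261-GSCs nearly all of it came from Syt1, which stood at 0.0148 and 0.0331 CPM in GL261. The part of these markers in the class I values was not tested.

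The class I genes did not change as a block. In edgeR 2 of the 10 were called, Nlrc5 and Psmb10, both lower in GL261-GSCs, and 0 were called higher. Over all genes tested 29.9% were called, 14.1% lower and 15.8% higher. At an unadjusted p under 0.05 the count was 4, all lower, with H2-D1 and B2m added, and over all genes 42.5% passed that limit and 19.9% did so as lower. In these 4 genes every GL261-GSCs library lay below both GL261 libraries, whereas 28.0% of all genes lay so and 28.7% lay wholly above. The median log2 fold change of the 10 genes was -0.24, and that of all genes tested was 0.04. The other 6 genes had log2 fold changes between -0.40 and 0.73 with intervals that spanned 0, and in each of them the GL261-GSCs libraries overlapped the GL261 libraries. Neither call was kept without GL261 replicate 1, without GL261 replicate 2 or without GL261-GSCs replicate 3, where 0 of 10 genes were called, and without GL261-GSCs replicate 2 only Nlrc5 was called. The share called over all genes fell too, to 10.3%, 9.3% and 22.7% in the first 3 of these fits, and was 27.3% in the last. Without GL261-GSCs replicate 1, 3 of the 10 were called, all lower (33.8% of all genes). DESeq2 called 4 of the 10 genes (36.7% of all genes) and limma-voom 2 (29.5%).

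**Figure D1:**
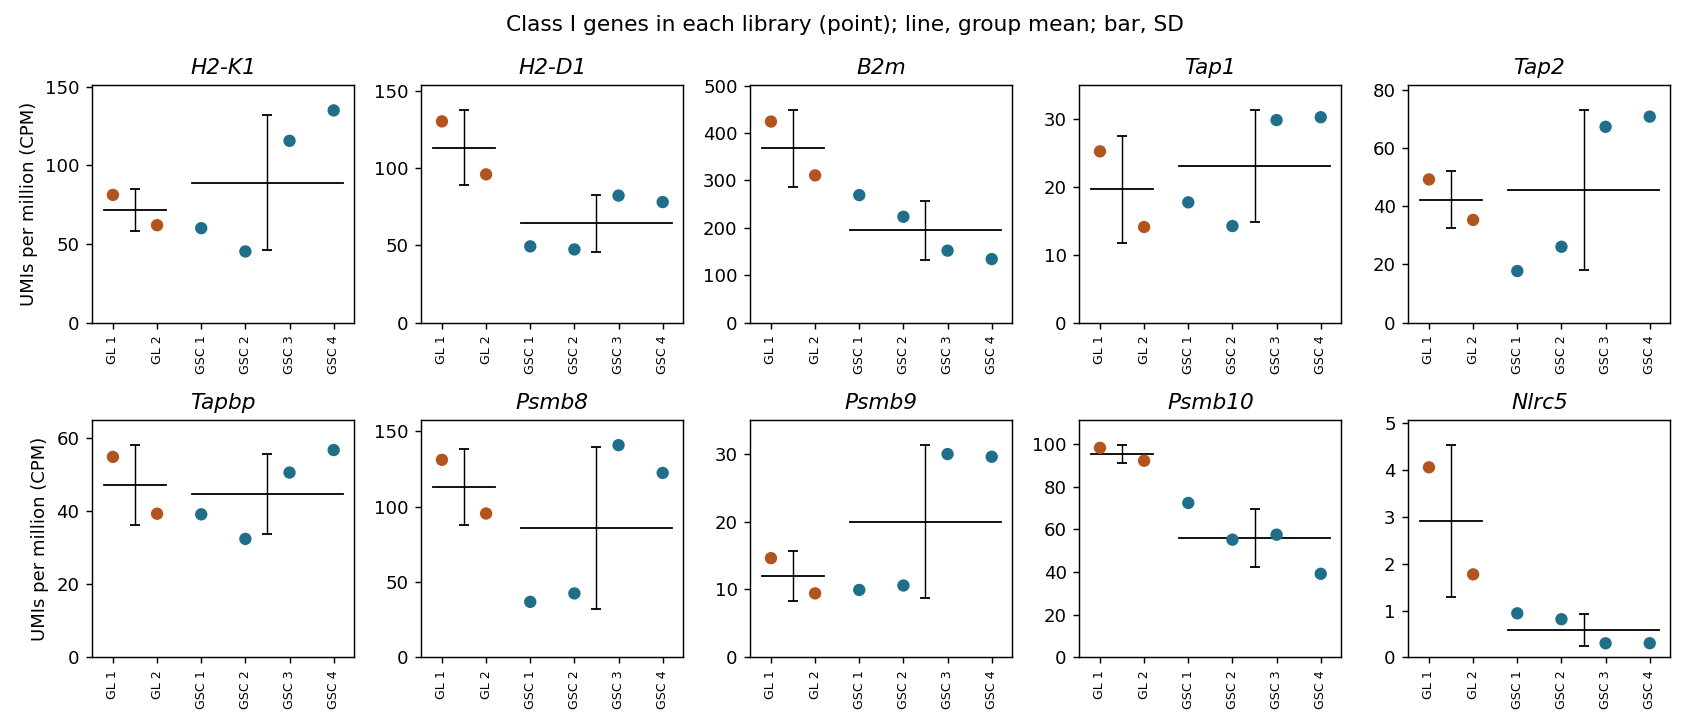
Level of each class I gene in CPM (vertical axis, from 0) in the 2 GL261 (GL, orange) and 4 GL261-GSCs (GSC, blue) libraries; each point is a library, lines are group means and bars are SD. B2m, H2-D1, Psmb10 and Nlrc5 have all GL261-GSCs points below both GL261 points, and in H2-K1, Tap1, Tap2 and Psmb9 the libraries GSC 3 and GSC 4 are the highest of the 6.

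Of the heavy chains and their partner, B2m and H2-D1 were lower in every GL261-GSCs library without passing the adjusted test, and H2-K1 was not. B2m (chromosome 2, 122147686 to 122153083), the light chain that every class I heavy chain needs for folding, stood at 424 and 311 CPM in GL261 and at 269, 223, 152 and 134 CPM in GL261-GSCs replicates 1 to 4. The groups did not overlap, and replicates 3 and 4 were the lowest of the 6 libraries. Its log2 fold change was -0.92 (SE 0.30, 95% interval -1.63 to -0.21), or 1.89-fold lower, with an edgeR adjusted p of 0.0584. It was -1.34 without GL261-GSCs replicates 1 and 2 (edgeR adjusted p = 0.000589) and -0.57 without replicates 3 and 4 (edgeR adjusted p = 0.0638).

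H2-D1 (chromosome 17, 35262730 to 35267499), the D heavy chain, stood at 130.2 and 95.9 CPM in GL261 and at 49.3, 47.4, 82.2 and 78.0 CPM in GL261-GSCs. Here too the groups did not overlap, but replicates 1 and 2 were the lowest. The log2 fold change was -0.82 (SE 0.27, 95% interval -1.47 to -0.17), or 1.76-fold lower, with an edgeR adjusted p of 0.0633. It was -0.48 without GL261-GSCs replicates 1 and 2 (edgeR adjusted p = 0.0375) and -1.22 without replicates 3 and 4 (edgeR adjusted p = 0.00558).

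H2-K1 (chromosome 17, 33996017 to 34000347), the K heavy chain, stood at 81.1 and 61.9 CPM in GL261 and at 60.0, 45.2, 115 and 135 CPM in GL261-GSCs. Replicates 1 and 2 lay below both GL261 libraries and replicates 3 and 4 above both. The log2 fold change was 0.31 (SE 0.45, 95% interval -0.75 to 1.38), with an edgeR adjusted p of 0.628. It was 0.83 without replicates 1 and 2 (edgeR adjusted p = 0.00369) and -0.44 without replicates 3 and 4 (edgeR adjusted p = 0.14).

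The balance between the heavy chains, read within each library and chosen after its values were seen, separated the groups. H2-D1 gave 1.61 and 1.55 UMIs per UMI of H2-K1 in the GL261 libraries, and 0.823, 1.05, 0.712 and 0.579 in GL261-GSCs replicates 1 to 4. It was thus lower in all 4 GL261-GSCs libraries, a description with no test, and it does not depend on scaling between libraries. Shared sequence may enter it, and its part was not tested: 5.46% of the 90-base windows of the H2-D1 transcript and 0.13% of those of H2-K1 also occur in another gene. The first 300 bases of either held 0 such windows, but an annotated H2-D1 exon lies before the RefSeq start. Those bases may therefore not be the 5′ end that these libraries read.

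Among 16 other class I and class I-like heavy chain genes, 11 were tested and 2 called (18.2%, against 29.9% of all genes), 1 in each direction, with a median log2 fold change of 0.43. H2-Q4, a non-classical heavy chain, fell from 8.16 and 3.73 CPM in GL261 to between 0.0375 and 0.591 CPM in GL261-GSCs, a log2 fold change of -4.34 (SE 0.89, edgeR adjusted p = 0.0121), and was not called without GL261 replicate 1 (edgeR adjusted p = 0.09). Its family shares sequence, so its assignment is uncertain. Cd1d1, which presents lipids to NKT cells, rose from 1.32 and 0.696 CPM to between 3.13 and 4.76 CPM, a log2 fold change of 2.02 (SE 0.36, edgeR adjusted p = 0.00723), and was not called without GL261 replicate 2 (edgeR adjusted p = 0.0683). H2-T23, which encodes the Qa-1 chain read by NKG2A, had a log2 fold change of -0.24 (SE 0.50) and overlapping groups.

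The peptide pump and tapasin showed no call between the groups. Tap1 (chromosome 17, 34187553 to 34197225) stood at 25.3 and 14.1 CPM in GL261 and at 17.8, 14.3, 29.9 and 30.3 CPM in GL261-GSCs. GL261 replicate 1 was closer to GL261-GSCs replicates 3 and 4 than to its own replicate 2. The log2 fold change was 0.23 (SE 0.39, 95% interval -0.69 to 1.14, edgeR adjusted p = 0.688), and it was negative without GL261 replicate 2 (-0.14).

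Tap2 (chromosome 17, 34203527 to 34216321) stood at 49.2 and 35.3 CPM in GL261 and at 17.7, 26.1, 67.2 and 70.7 CPM in GL261-GSCs. The GL261 libraries lay between the pairs of GL261-GSCs libraries. Its log2 fold change was 0.10 (SE 0.57, 95% interval -1.25 to 1.46, edgeR adjusted p = 0.908). Its sign depended on which pair was left out: 0.73 without replicates 1 and 2 (edgeR adjusted p = 0.00727) and -0.94 without replicates 3 and 4 (edgeR adjusted p = 0.0373).

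Tapbp (chromosome 17, 33915899 to 33929292) was the most even of the 3 loading genes, at 54.8 and 39.3 CPM in GL261 and 39.1, 32.4, 50.5 and 56.7 CPM in GL261-GSCs. Its log2 fold change was -0.08 (SE 0.26, 95% interval -0.68 to 0.53, edgeR adjusted p = 0.849), and it was 0.07 when libraries were scaled by size alone. The gene Zbtb22 overlaps it on the same strand, with up to 47.1% of the CPM of Tapbp, so the counting of UMIs from the shared stretch is uncertain.

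Of 15 other genes of peptide loading and trimming 5 were called (33.3%, near the 29.9% of all genes), 3 higher and 2 lower, and their median log2 fold change was 0.13. Tapbpl (TAPBPR), a second peptide editor of class I molecules, fell from 10.8 and 11.1 CPM in GL261 to between 2.57 and 4.53 CPM in GL261-GSCs, a log2 fold change of -1.64 (SE 0.25, edgeR adjusted p = 0.00372). Erap1, the aminopeptidase that trims peptides in the endoplasmic reticulum, rose from 14.7 and 13.4 CPM to between 18.9 and 37.2 CPM, a log2 fold change of 0.98 (SE 0.28, edgeR adjusted p = 0.0398). Spast, which was counted in the list but encodes spastin, a microtubule-severing enzyme, rose by a log2 fold change of 0.73 (SE 0.14, edgeR adjusted p = 0.0107). The chaperones of the loading complex were not called: calreticulin (Calr) had a log2 fold change of -0.53 (SE 0.20, edgeR adjusted p = 0.0901), calnexin (Canx) of 0.25 (SE 0.18), and Pdia3 of -0.04 (SE 0.16). The count of 5 fell to 1, Tapbpl, without GL261 replicate 1 or replicate 2, and to 3 without GL261-GSCs replicate 3 or with all barcodes. Erap1 was not called in any of these fits, nor without GL261-GSCs replicate 4 (edgeR adjusted p = 0.0647), where Calr was called instead (-0.38, edgeR adjusted p = 0.0464).

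Of the 3 immunoproteasome genes 1 was called, Psmb10, where 29.9% of all genes tested were called. Psmb10 (chromosome 8, 105935735 to 105938444), the inducible counterpart of Psmb7, stood at 98.2 and 92.2 CPM in GL261 and at 72.4, 55.2, 57.5 and 39.2 CPM in GL261-GSCs. All 4 lay below both GL261 libraries. Psmb10 fell by 0.76 on the log2 scale (SE 0.23, 95% interval -1.30 to -0.23), or 1.698-fold, with an edgeR adjusted p of 0.0427. The call was also lost without GL261-GSCs replicate 2 (edgeR adjusted p = 0.0884) and with library size scaling (edgeR adjusted p = 0.0569), and it was kept without replicates 1 and 2 (-0.95) and without replicates 3 and 4 (-0.57).

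Psmb8 (chromosome 17, 34197721 to 34201454), the counterpart of Psmb5, stood at 131 and 95.4 CPM in GL261 and at 36.8, 42.4, 141 and 122 CPM in GL261-GSCs. Replicates 1 and 2 were the lowest of the 6 libraries, and replicates 3 and 4 lay within or above the GL261 range. For the groups the log2 fold change was -0.40 (SE 0.57, 95% interval -1.76 to 0.95, edgeR adjusted p = 0.623). It was 0.24 without replicates 1 and 2 (edgeR adjusted p = 0.276) and -1.51 without replicates 3 and 4 (edgeR adjusted p = 0.00403).

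Psmb9 (chromosome 17, 34181987 to 34187764), the counterpart of Psmb6, stood at 14.6 and 9.43 CPM in GL261 and at 9.93, 10.6, 29.95 and 29.6 CPM in GL261-GSCs. Replicates 3 and 4 were the highest of the 6 libraries, and replicates 1 and 2 lay within the GL261 range. The log2 fold change was 0.73 (SE 0.55, 95% interval -0.57 to 2.04, edgeR adjusted p = 0.349), with 1.33 without replicates 1 and 2 (edgeR adjusted p = 0.00107) and -0.22 without replicates 3 and 4 (edgeR adjusted p = 0.493). Psmb9 and Tap1 are read in opposite directions from RefSeq starts 225 bases apart, and their annotated gene bodies overlap by 212 bases on opposite strands. The sources used here do not state whether counting used strand, so UMIs of that stretch may be assigned to either. The ratio of Tap1 to Psmb9 UMIs, chosen after its values were seen, was 1.73 and 1.497 in GL261, 1.79 and 1.35 in GL261-GSCs replicates 1 and 2, and 0.998 and 1.03 in replicates 3 and 4.

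Each inducible subunit was also set against the constitutive subunit that it replaces. In GL261 the Psmb10 to Psmb7 ratio of UMIs was 0.790 and 0.706, and in the 4 GL261-GSCs libraries 0.565, 0.409, 0.524 and 0.502, with no overlap. The mean log2 ratio was -0.42 ± 0.12 (SD, n = 2) in GL261 and -1.01 ± 0.20 (SD, n = 4) in GL261-GSCs, with an exact permutation p of 0.133 (2-sided), the smallest that 2 libraries against 4 allow, and 0.4 after adjustment over the 3 ratios. This exact test of a single value therefore cannot pass 0.05 with these libraries.

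The ratio of Psmb8 to Psmb5 was 0.386 and 0.279 in GL261, 0.132 and 0.162 in GL261-GSCs replicates 1 and 2, and 0.937 and 1.13 in replicates 3 and 4 (exact permutation p = 0.8). The ratio of Psmb9 to Psmb6 was 0.0385 and 0.0249 in GL261, 0.0292 and 0.0379 in replicates 1 and 2, and 0.129 and 0.186 in replicates 3 and 4 (exact permutation p = 0.4). Both ratios were thus highest in the same 2 libraries, and their group means lay within the spread of the GL261-GSCs libraries. In these libraries the denominators were also lowest: Psmb5 stood at 150.2 and 108 CPM in replicates 3 and 4 against 279 and 262 CPM in replicates 1 and 2.

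**Figure D2:**
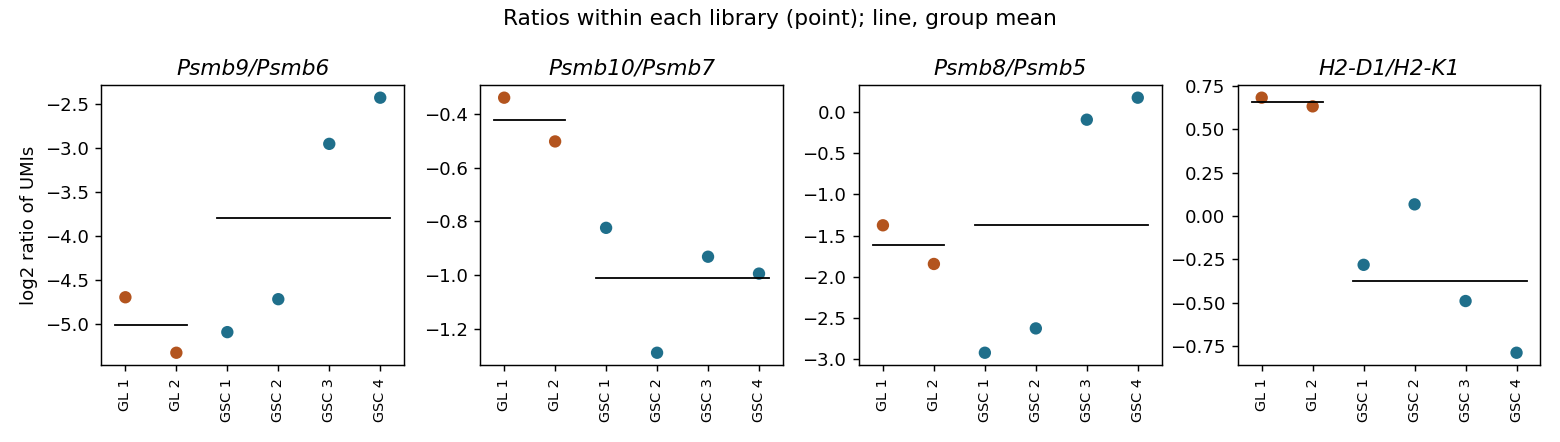
Log2 ratio of the UMIs of 2 genes within each library (vertical axes, different ranges); points are libraries, orange for GL261 and blue for GL261-GSCs, and lines are group means. Psmb10/Psmb7 and H2-D1/H2-K1 are lower in all 4 GL261-GSCs libraries, and Psmb9/Psmb6 and Psmb8/Psmb5 are highest in GSC 3 and GSC 4.

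Of 19 genes of the proteasome core and its activators 1 was called, lower (5.26%, against 29.9% of all genes called and 14.1% called lower), and the median log2 fold change was -0.26. That gene was Psme2, a subunit of the PA28 activator that interferon-gamma induces. It fell from 346 and 317 CPM to between 139 and 208 CPM in GL261-GSCs (log2 fold change -0.88, SE 0.18, edgeR adjusted p = 0.0120), and was not called without GL261 replicate 1 (edgeR adjusted p = 0.104) or replicate 2 (edgeR adjusted p = 0.0804). Its partner Psme1 had a log2 fold change of -0.39 (SE 0.13, edgeR adjusted p = 0.067). The constitutive Psmb5, Psmb6 and Psmb7 had log2 fold changes of -0.77 (SE 0.37), -0.59 (SE 0.28) and -0.18 (SE 0.22), none of them called. DESeq2 called 3 genes of the list, all lower.

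Nlrc5 (chromosome 8, 94434356 to 94527272) had the largest difference of the 10 genes. It stood at 4.06 and 1.77 CPM in GL261, from 274 and 107 UMIs, and at 0.940, 0.814, 0.300 and 0.302 CPM in GL261-GSCs, from 62, 59, 24 and 11 UMIs. Every GL261-GSCs library lay below both GL261 libraries, and the GL261 libraries differed 2.29-fold from each other. Nlrc5 fell by 2.29 on the log2 scale (SE 0.57, 95% interval -3.64 to -0.94), or 4.89-fold, with an edgeR adjusted p of 0.0243. The log2 fold change was -3.25 without GL261-GSCs replicates 1 and 2 and -1.73 without replicates 3 and 4, both called, and -1.58 without GL261 replicate 1 (edgeR adjusted p = 0.209). The lincRNA 9330175E14Rik overlaps it on the opposite strand at up to 29.0% of its CPM.

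Of 36 other regulators of the pathway 35 were tested and 9 called (25.7%, against 29.9% of all genes), 5 higher and 4 lower, with a median log2 fold change of -0.24. The interferon-gamma receptor chain Ifngr1 had a log2 fold change of 0.08 (SE 0.23), the kinase Jak1 of -0.30 (SE 0.17), and Irf1, the factor that binds the interferon element, of -0.37 (SE 0.19). None of these 3 was called. Their partners were, chosen here after their values were seen: the receptor chain Ifngr2 rose by a log2 fold change of 1.39 (SE 0.33, edgeR adjusted p = 0.0212) and the kinase Jak2 by 0.98 (SE 0.24, edgeR adjusted p = 0.0213). Ifnar1, Irf3 and Socs1 are named too, so that all 9 calls are given. Their log2 fold changes were 1.26, -0.97 and -0.84 (edgeR adjusted p = 0.0467, 0.00467 and 0.0349). Socs3, a feedback inhibitor of cytokine receptors, fell from 23.2 and 21.97 CPM to between 3.11 and 4.45 CPM, a log2 fold change of -2.61 (SE 0.20, edgeR adjusted p = 0.000313). Nfkb2, which gives the p52 subunit, fell from 55.3 and 50.7 CPM to between 14.3 and 18.7 CPM, a log2 fold change of -1.67 (SE 0.16, edgeR adjusted p = 0.00057). The subunits Rela and Nfkb1 had log2 fold changes of -0.44 (SE 0.17) and -0.56 (SE 0.20), neither called.

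Irf2, which competes with Irf1 for the same element, rose from 27.1 and 26.7 CPM to between 35.4 and 52.6 CPM, a log2 fold change of 0.78 (SE 0.19, edgeR adjusted p = 0.0226). Irf8 rose from 4 UMIs in GL261, all in replicate 1, to 119 UMIs over the 4 GL261-GSCs libraries (log2 fold change 3.87, SE 0.92, edgeR adjusted p = 0.0205), at most 0.728 CPM, and it rests on few UMIs: the log2 fold change was 2.97 without GL261 replicate 2 (edgeR adjusted p = 0.0976), and without replicate 1 no fold is given, since replicate 2 held 0 UMIs. Rfx5, a subunit of the factor through which Nlrc5 reaches the promoter, had a log2 fold change of 0.49 (SE 0.19, edgeR adjusted p = 0.0874). Ciita, the class II counterpart of Nlrc5, was too low to test, with 1 UMI in GL261 and 8 in GL261-GSCs. Socs3 and Nfkb2 were the calls that did not depend on any 1 library: leaving out GL261 replicate 1 lowered the count of 9 to 4, GL261 replicate 2 to 2, and GL261-GSCs replicate 3 to 5.

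**Figure D3:**
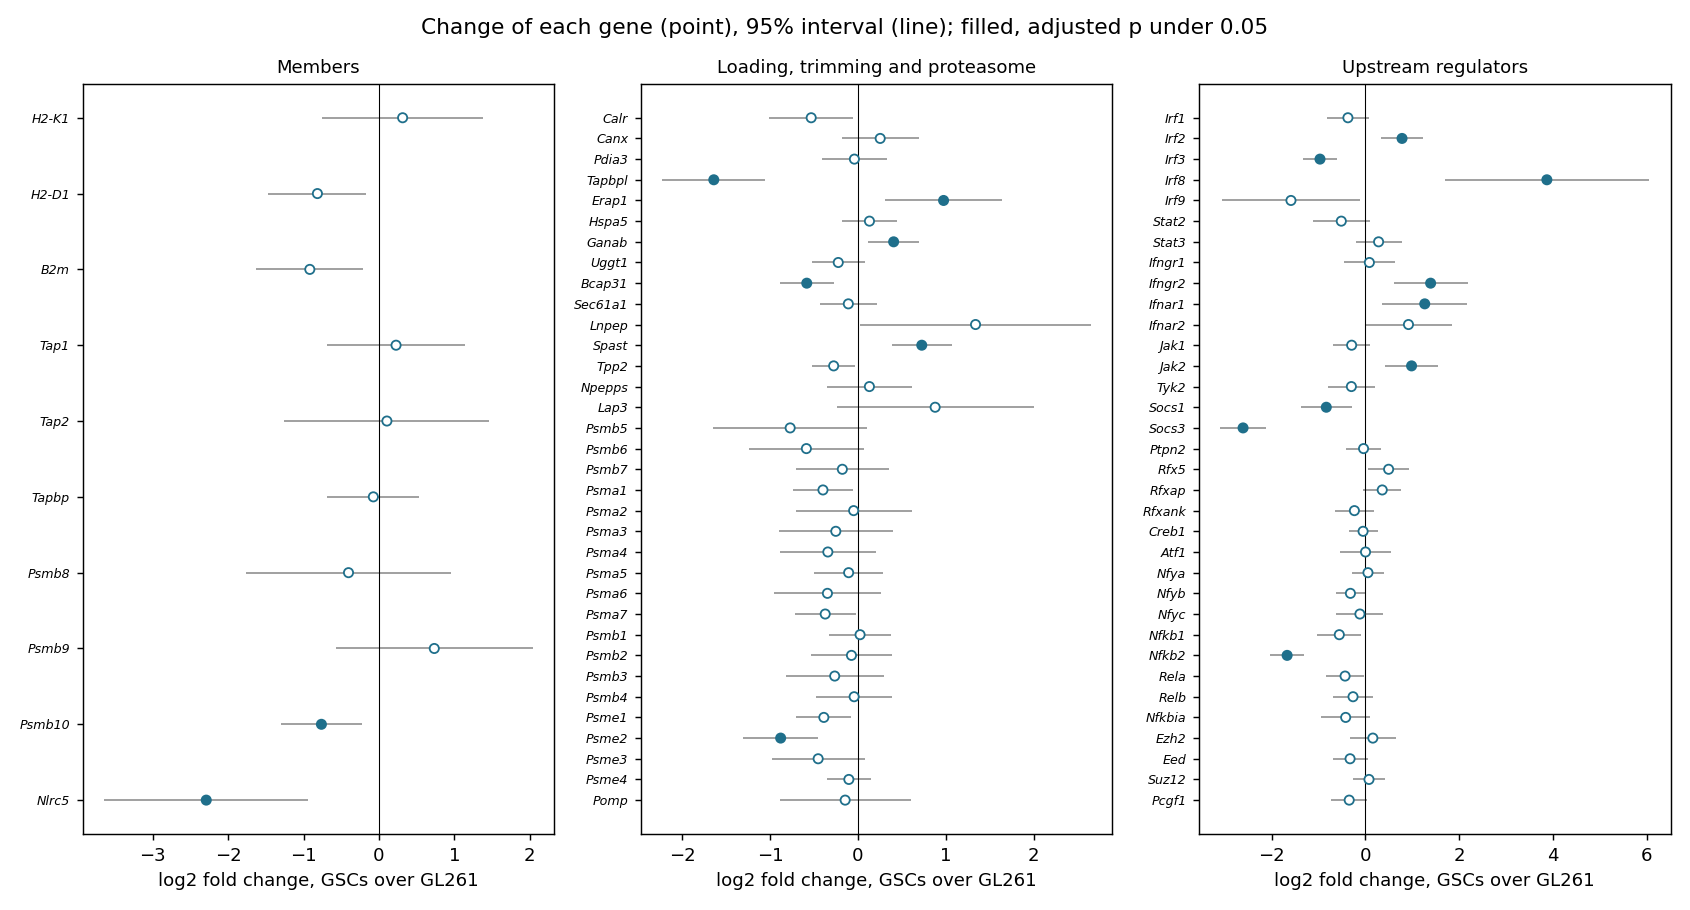
Log2 fold change, GL261-GSCs over GL261 (horizontal axis; edgeR), with 95% intervals, of the 10 class I genes (left), the loading, trimming and proteasome genes (middle) and the regulators (right); filled points have an adjusted p under 0.05. Filled points among the 10 are Psmb10 and Nlrc5, both below 0.

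Interferon-inducible GTPases, which respond to the same cytokine but are not components of the pathway described above, were counted beside the class I genes. Of 15 such genes 13 were tested and 5 called, all 5 lower in GL261-GSCs (38.5%, against 29.9% of all genes called and 14.1% called lower); the list's median log2 fold change was -1.38. Irgm2, an immunity-related GTPase, fell from 11.2 and 4.34 CPM to between 0.725 and 2.23 CPM (log2 fold change -2.71, SE 0.55, edgeR adjusted p = 0.0116). Ifi47 fell from 1.58 and 0.729 CPM to between 0.0549 and 0.334 CPM (log2 fold change -2.43, SE 0.60, edgeR adjusted p = 0.0230). Iigp1 fell from 1.13 and 0.580 CPM to at most 0.243 CPM (log2 fold change -3.18, SE 0.94, edgeR adjusted p = 0.0434). Gbp9, Gbp6 and Gbp4, guanylate-binding proteins chosen here after their values were seen, pointed the other way with log2 fold changes of 2.24, 1.22 and 1.92 (edgeR adjusted p = 0.0987, 0.105 and 0.203), and DESeq2 called 7 genes of the list, 1 of them higher. The count of 5 was 0 without GL261 replicate 1, 1 without GL261-GSCs replicate 3, and 3 without GL261 replicate 2 or GL261-GSCs replicate 2 or 4.

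The GL261 libraries were not alike in these genes. All 10 class I genes stood higher in GL261 replicate 1 than in replicate 2, by 1.07-fold to 2.29-fold with a median of 1.38-fold, whereas 48.4% of all genes tested did and their median ratio was 0.994. All 15 GTPases were also higher in replicate 1. Of the 13 tested, Gbp4 had 12 UMIs there and 0 in replicate 2, and the others were higher by 1.92-fold to 6.39-fold. Median UMIs per cell were 15478 in replicate 1 and 13652 in replicate 2, and their part in the difference was not tested. With 2 libraries this difference enters every SE above.

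The GL261-GSCs libraries fell into pairs in 9 of the 10 genes. Replicates 3 and 4 both lay above replicates 1 and 2 in 7 genes, and both lay below in 2, B2m and Nlrc5. The shares over all genes, given above, were 32.4% and 31.2%. The 7 genes were those of chromosome 17, where they lie in the MHC region between 33915899 and 35267499. Measured as the log2 of CPM plus 1 against the mean of the 4 GL261-GSCs libraries, their median was -0.42, -0.59, 0.51 and 0.72 in replicates 1 to 4. The median of 40 tested neighbours on chromosome 17, other than class I and class II genes, was -0.13, 0.05, 0.13 and -0.02, and that of the 856 tested genes of chromosome 17 was -0.15, -0.03, 0.10 and 0.08. The order was not particular to the 7 genes. Of the other tested class I and class II genes of this chromosome, H2-T22, H2-T10, H2-M3, H2-T23, H2-K2, H2-DMa and H2-DMb1 also had replicates 3 and 4 both above replicates 1 and 2. H2-T22 stood at 23.1, 26.6, 45.4 and 39.9 CPM in replicates 1 to 4. In H2-Q4 and H2-DMb2 both lay below, and in H2-T24, H2-Ab1 and H2-Oa neither held. The depth, mitochondrial share and Syt1 level given above also differed between the pairs, and their part was not tested. The counts of calls between the groups also moved with the pairs. Without replicates 1 and 2, and without replicates 3 and 4, in that order, 7 and 5 of the 10 class I genes were called, of which 3 and 0 were higher. Over all genes tested 54.9% and 39.8% were called in these fits, against 29.9% with all 6 libraries. The loading and trimming list then held 9 and 7 calls, the other heavy chains 5 and 6, the proteasome 10 and 3, the regulators 21 and 13, the GTPases 10 (2 of them higher) and 4, and the neighbours 12 and 10.

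These neighbours were compared between the groups too. They were taken from a list of gene names and run past the stretch given above: Phf1 and Cuta lie apart, near 26933052, and the rest reach to 35989462. Of the 40 tested 6 were called (15%), 4 higher and 2 lower, against 24.8% of the tested genes of chromosome 17 and 29.9% of all genes, with a median log2 fold change of -0.01. The 2 lower ones were the receptor gene Notch4 (-2.43, edgeR adjusted p = 0.000368) and Ppp1r18 (-2.32, edgeR adjusted p = 0.000884), and only these 2 of the 6 were called without GL261 replicate 1 or 2. Ppt2, a lysosomal thioesterase gene, had the largest rise among the called neighbours (0.93, edgeR adjusted p = 0.0353) and was not called without GL261 replicate 1 or 2 or GL261-GSCs replicate 2. Col11a2, a collagen gene, had a larger log2 fold change (2.40, SE 1.14, edgeR adjusted p = 0.156) that was not called, with 255 and 329 CPM in GL261-GSCs replicates 3 and 4 and 27.9 to 33.1 CPM in the other 4 libraries. Of 10 genes of class II presentation 6 were tested and 2 called. H2-DMa, a chain of the DM peptide exchanger, rose (1.61, edgeR adjusted p = 0.0346), H2-DMb1, its partner, fell (-0.98, edgeR adjusted p = 0.0239). Of the defining genes of professional presenting cells, H2-Aa, H2-Eb1 and Cd74 stayed at or under 1.08 CPM in every library and H2-Ab1 at or under 1.36 CPM. Both DM calls were lost without GL261 replicate 1 or 2, and that of H2-DMa also without GL261-GSCs replicate 3.

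The genes whose pattern over the 6 libraries was most like that of H2-K1 were sought among abundant genes. Likeness was the root mean square difference of the log2 of CPM plus 1 after subtracting each gene's mean. It was taken among 5425 genes with an average log2 CPM of at least 5, a limit that left out Tap1, Psmb9 and Nlrc5. The 5 nearest of the genes ranked were Pfkp (0.169), Mgrn1 (0.189), Aldoa (0.192), Hk1 (0.199) and Zswim8 (0.202); the symbol Aldoa is given to more than 1 identifier, so its value is uncertain. Pfkp, Aldoa and Hk1 encode enzymes of glycolysis, and Mgrn1 a ubiquitin ligase. How many of the genes ranked belong to glycolysis was not counted. In each of these 5 genes GL261-GSCs replicates 3 and 4 lay above replicates 1 and 2, as in 32.4% of all genes tested. Pfkp stood at 24.5 and 24.9 CPM in GL261 and at 25.2, 18.5, 46.2 and 58.7 CPM in GL261-GSCs. Among the class I genes high enough to be ranked, Tapbp came at rank 60, Tap2 at 125, Psmb8 at 599, H2-D1 at 1170, Psmb10 at 4455 and B2m at 4964. Measured the same way but not ranked, Tap1 lay at 0.2021, level with the 5th nearest gene, Psmb9 at 0.251 and Nlrc5 at 1.01. The added 1 shrinks differences at low CPM, as for Nlrc5.

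Seen cell by cell, the class I genes gave few UMIs. With every cell thinned to 2000 UMIs, which left out 0 cells, the median cell showed 1 of the 10 genes in every library. In the GL261 libraries 0.998% and 0.220% of cells showed 5 or more of them, against 0.258%, 0.256%, 0.564% and 0.931% for GL261-GSCs replicates 1 to 4. Cells with 0 of them made up 17.9% and 28.0% of the GL261 cells, against 34.8%, 38.3%, 24.3% and 24.2% for GL261-GSCs. No group of cells without the pathway can be read from these shares at this depth.

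For B2m 54.0% and 40.6% of thinned GL261 cells had a UMI, against 37.9%, 35.2%, 24.1% and 22.6% in GL261-GSCs. The means were 47.3% ± 9.42 (SD, n = 2) and 29.96% ± 7.73 (SD, n = 4), with no overlap and an exact permutation p of 0.133 (2-sided; 0.444 adjusted over 10 genes). For Psmb10 the means were 15.5% ± 0.217 in GL261 (SD, n = 2) and 9.71% ± 2.22 in GL261-GSCs (SD, n = 4), and for Nlrc5 0.686% ± 0.235 and 0.140% ± 0.0926, each without overlap and with that same exact permutation p. The other 7 genes had overlapping shares. Without thinning, at the depths given above, B2m was seen in 94.7% and 90.6% of GL261 cells and in 91.4%, 85.2%, 68.8% and 53.4% of GL261-GSCs cells, Psmb10 in 23.9% to 65.4% of cells and Nlrc5 in 0.222% to 5.24%.

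Free RNA in the droplets can give such shares too. From barcodes of 100 to under 1000 UMIs, the share of cells with a UMI that free RNA alone would give at this depth was above the measured share, beyond its 95% exact binomial interval, in 6 of 6 libraries for B2m and Psmb10 and in 5 of 6 for Psmb8. Those shares are not read as above free RNA. The comparison takes all 2000 UMIs of a cell as free RNA, so it does not show that the UMIs seen are background. Psmb9 was above free RNA in 0 of 6 libraries and below it in 2, H2-D1 above in 1 and below in 2, and H2-K1 above in 3 and below in 1. Their shares are not read as above free RNA either. The comparisons of these 6 genes rest on the summed UMIs, which come from the same droplets. For Tap1, Tap2 and Tapbp the measured share was above that of free RNA in 6 of 6 libraries: Tap2 was seen in 8.40% and 5.998% of GL261 cells and in 3.99%, 5.84%, 14.98% and 17.04% of GL261-GSCs cells, where free RNA gives 1.31% to 11.2%. Nlrc5 was above it in 3 of 6 libraries. Removing 10% of each library's cell UMIs at the profile of free RNA left Psmb10 (-0.75, edgeR adjusted p = 0.0447) and Nlrc5 (-2.33, edgeR adjusted p = 0.0236) called and added H2-D1 (-0.83, edgeR adjusted p = 0.0478). In that fit 5387 of all 18257 genes tested were called. Intervals and limits cover counting error only.

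**Figure D4:**
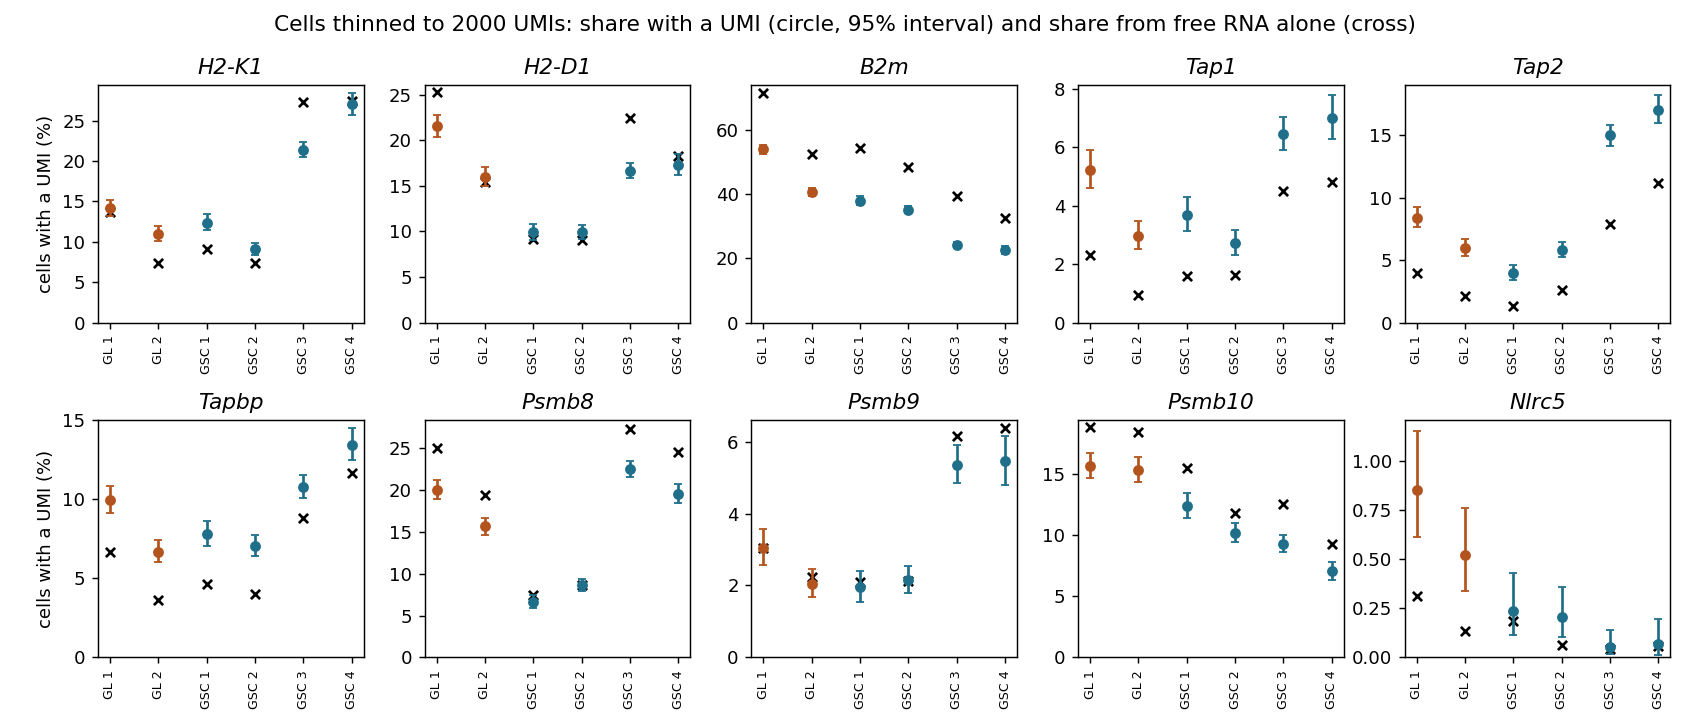
Percentage of cells in which each gene had a UMI after thinning to 2000 UMIs per cell (vertical axes, percent, from 0; circles, bars are 95% exact binomial intervals; orange GL261, blue GL261-GSCs) and the share that free RNA alone would give (crosses). Circles lie above the crosses in all 6 libraries for Tap1, Tap2 and Tapbp, and below them for B2m and Psmb10.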

How the data were processed

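Gene expression was measured in 6 single-cell libraries, grouped by sample title. What the authors deposited are unfiltered matrices of raw UMI counts, made with Cell Ranger (version 4 per the file headers) on mm10, per the submitters' processing notes. The sources used here give neither the annotation release nor whether cells or nuclei were loaded. Coordinates come from GENCODE M21 (GRCm38), where 6 of the 10 identifiers matched with their version and the rest without.

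Cells were barcodes with 500 genes, under 10% mitochondrial UMIs, and a UMI count of 10% or more of the 99th percentile among the 3000 largest. UMIs were summed over cells per library and tested with edgeR 4.0.16 (quasi-likelihood, TMM, filterByExpr, 2-sided) in R 4.3.3, over all genes and with no block. The SE is the absolute log2 fold change over the square root of F. Doublets were not removed. Ratios and shares were compared by exact permutation in scipy 1.17.1. The test was checked on simulated data.

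The class I genes and the 11 other lists were chosen with earlier results of these data known. In the lists, Hsd17b8 was not found among the symbols. Named besides the 10 genes were 19 set genes, of which 1 is counted in its list but not reported or drawn here, and, per list, up to 3 called genes with the largest change. Replicate numbers did not pair libraries. Alternatives were DESeq2 1.42.0, limma-voom (limma 3.58.1), other scalings, filters, cell calls, free RNA subtraction and left-out libraries.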

Additional observations from a re-analysis of the deposited data

Results flagged for a closer look

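Each group of 4 GL261-GSCs libraries was checked for a library far from the rest, in 66 gene levels and other values, and 3 were found; chance flags about 1 in 20 groups. Irgm2 stood at 2.229 CPM in GL261-GSCs replicate 1 and at 0.7254 to 0.9065 CPM in the others. Notch4 stood at 1.374 CPM in replicate 4 and at 1.201 to 1.214 CPM in the others. Csf1r stood at 0.1923 CPM in replicate 4 and at 0.2346 to 0.2426 CPM in the others. None of the 10 class I genes was among them.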

How the results depend on the processing

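The count of called class I genes was 2. It was 1 with library size scaling, 4 with no filter, 4 with DESeq2, 7 (all lower) with the replicate block, 7 (3 higher, 4 lower) without GL261-GSCs replicates 1 and 2 and 5 (all lower) without replicates 3 and 4, and 0 to 3 when 1 library was left out. The count of all genes called was 5514 (2920 higher, 2594 lower), 9881 without GL261-GSCs replicates 1 and 2, and 1817 to 6193 when 1 library was left out. With library size scaling it was 5525 (3491 higher, 2034 lower), and the median over all genes moved from 0.04 to 0.18 (log2). With no filter 5584 of 32817 genes were called, with DESeq2 36.7%, and with the replicate block 6512 of 18439. Without GL261-GSCs replicates 1 and 2 the share was 54.9%, and without replicates 3 and 4 it was 39.8%.

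The same-numbered libraries did not deviate together (correlations -0.00712 and 0.0705), so numbers were not taken as pairs. With the block, GL261-GSCs replicates 3 and 4 have no partner and drop out, and 6512 genes were called.

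Some log2 fold changes changed sign. With the replicate block and without GL261-GSCs replicates 3 and 4, in that order, H2-K1 was -0.44 and -0.44, Tap1 -0.25 and -0.29, Tap2 -0.95 and -0.94, Psmb9 -0.20 and -0.22, Pdia3 0.0789 and 0.0876, Psmb7 0.0449 and 0.052, and Ifngr1 -0.25 and -0.24. Without replicates 1 and 2, Tapbp was 0.21, Psmb8 0.24 and H2-T23 0.22. With library size scaling Tapbp was 0.0745 and Pdia3 0.11, with all barcodes Tapbp was 0.0003, and with limma-voom Tap2 was -0.14. When 1 library was left out, values ran from -0.14 to 0.70 for Tap1, -0.16 to 0.39 for Tap2, -0.30 to 0.18 for Tapbp, -0.74 to 0.53 for H2-T23, -0.12 to 0.0468 for Pdia3 and -0.0109 to 0.22 for Ifngr1. The log2 ratio difference of Psmb8 to Psmb5 ran from -0.27 to 0.76. Differences in the share of cells, in percentage points, were -3.68 for Tap2 and -4.98 for Tapbp with no thinning, and ran from -0.26 to 2.001 for Tap1 and from -0.19 to 3.096 for Tapbp when 1 library was left out. The cause was not tested. Of 180 log2 fold changes of the 10 genes under alternatives 137 kept their direction and their side of the threshold, and of 100 shares 96 kept their direction. With 2 GL261 libraries, leaving 1 out assumes that the lone library varies like the others. Nlrc5, with 11 UMIs in its lowest library, has the least depth.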
